A study of Mus musculus with 17 samples.

Results

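The genes described here write, read or remove the chemical marks that DNA and histones carry, or move nucleosomes. A list of 44 named genes was taken, and each was measured through the probe sets whose platform annotation names that gene and no other; a gene with several such probe sets was read from the one of highest average level. In this way 37 of the 44 genes were measured, of 17097 genes named on the array, and 36 of them passed the filter on low values. Tet1, Cbx8, Kmt2a, Suv39h1, Kdm6b, Ep300 and Smarca4 had no such probe set and were not analysed here. Kdm4a, a histone demethylase, was measured between 2.99 and 3.44 in all 17 arrays and did not pass the filter.

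The arrays came from 5 groups of C57/Bl6 wildtype mice. Leukemias were raised by transplanting cells transformed with Myc and Bcl2 into irradiated recipients 4 to 8 weeks old, given 4.5 to 6 Gy, and myeloid spleen cells were then sorted as positive for CD11b and Gr1 and negative for CD3, CD4 and CD8. The transformed cells were LSK marrow cells, a fraction enriched for blood stem cells (3 arrays), DN2 cells, an early stage of T-cell development in the thymus (5 arrays), or granulocyte-macrophage progenitors, GMPs (5 arrays). Untransformed DN2 cells of the thymus (2 arrays) and untransformed GMPs of the marrow (2 arrays) served as healthy controls; no healthy LSK array was analysed here, and the labels give no age for the healthy donors. The labels do not say how Myc and Bcl2 were delivered or whether the arrays of a group came from separate mice, so every p-value measures only the spread between these arrays, which may be technical. In bulk samples such as these, fewer cells of a type and less RNA per cell cannot be told apart.

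As background, DNA methyltransferases add methyl groups to cytosines: Dnmt3a and Dnmt3b set new methylation, and Dnmt1 copies it onto the new strand after replication, guided by Uhrf1. Tet enzymes oxidise methylcytosine and start its removal. Polycomb repressive complex 2 (Ezh1 or Ezh2 with Eed and Suz12) methylates histone H3 on lysine 27, and Polycomb repressive complex 1 (Ring1 or Rnf2 with Bmi1 and a Cbx protein) ubiquitinates histone H2A and compacts chromatin. Mutations of DNMT3A, TET2, ASXL1 and EZH2 are known in human myeloid leukemia, and many of the same factors take part in normal blood stem cell maintenance and T-cell commitment.

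All levels below are log2 RMA values, in which 1 unit is a doubling; the median of all values in the table was 3.83, and values near it are close to background. Levels of different genes are read by different probes and were not compared with each other. Differences were tested with limma in 1 fit of all 17 arrays, and a gene was called at a Benjamini-Hochberg adjusted p under 0.05 over the 11625 genes tested; errors of differences are standard errors and errors of means are SDs.

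Some arrays went against the sort described in the labels. Cd3e, a subunit of the T-cell receptor complex, lay between 7.79 and 9.06 in the DN2-labelled leukemias and between 5.00 and 5.56 in the other arrays. Itgam, which encodes CD11b, lay between 3.24 and 3.47 in arrays 2, 4 and 5 of the DN2-labelled leukemias, against 7.17 and 7.38 in arrays 1 and 3. The mean of 9 neutrophil genes was 3.64 to 5.19 in the DN2-labelled leukemias, 11.25 to 13.23 in the LSK-labelled and 11.95 to 13.01 in the GMP-labelled ones; the mean of 7 T-cell genes was 9.67 to 10.09, 3.97 to 4.56 and 4.19 to 4.86 in the same order. In healthy DN2 the T-cell mean was 8.12 to 8.21. The mean of 7 natural killer cell genes was 8.69 to 11.07 in the DN2-labelled leukemias and 5.38 to 5.43 in healthy DN2. It was 5.85 to 7.64 in the LSK-labelled and 3.67 to 4.54 in the GMP-labelled leukemias. The mean of 5 B-cell genes was 6.47 to 6.75 in the LSK-labelled and 3.54 to 3.79 in the GMP-labelled leukemias. The mean of 8 monocyte genes was 7.50 to 10.71 and 4.82 to 7.64 there, and the neutrophil mean in healthy GMPs was 7.08 to 7.20. Lineage content and the cell of origin therefore cannot be told apart in comparisons between the leukemias. Nor can lineage content, transformation, tissue, sort, transplantation and irradiation be told apart where leukemias are set against healthy cells. Mycn was at 12.82 in array 1 of the LSK-labelled leukemias but at 4.91 and 4.22 in arrays 2 and 3, where the healthy arrays ranged from 3.96 to 4.58 and all other leukemia arrays lay at 11.58 or above. The sample titles name Myc and not Mycn, and whether this Mycn signal came from a delivered gene was not tested. Most differences of single genes from the LSK-labelled group are therefore given also without arrays 2 and 3, or array by array. Medians, counts by role, counts without overlap and ranges keep all LSK-labelled arrays. The healthy DN2 arrays had Il2ra at 8.13 and 8.55, Kit at 9.90 and 9.69, and Ptcra at 3.31 and 3.52.

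The group with the highest mean was healthy DN2 for 21 of the 37 measured genes, and the group with the lowest mean was the LSK-labelled leukemia for 14. This order was not counted over all genes, so these counts have no background share beside them. They include Kdm4a and Tet3, which lay near background, and were not repeated without arrays 2 and 3 of the LSK-labelled group. Between the DN2-labelled and the GMP-labelled leukemias, 14 of 36 genes were called higher and 3 lower in the DN2-labelled ones, in total 47.2% of the genes, where 39.8% of all genes tested passed (21% higher and 18.8% lower). The share called lay near that background, and the calls leaned to the higher side: the median difference was 0.26 against 0.03 over all genes. Against the LSK-labelled leukemias, 15 were higher and 2 lower in the DN2-labelled ones, again 47.2%, and 47.4% of all genes passed there (28.4% higher and 19.1% lower). The median difference was 0.41 against 0.11. The list was chosen with earlier results of these data known, so shares and medians beside those of all genes only describe this list. These comparisons share the DN2-labelled arrays. Without arrays 2 and 3 of the LSK-labelled group, 12 genes were called in the latter comparison, with the single remaining array assumed to vary like the other groups.

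Between the LSK-labelled and the GMP-labelled leukemias, 3 genes were higher and 6 lower in the LSK-labelled ones, where 26.7% of all genes passed (10.3% higher and 16.5% lower), and the median was -0.13 against -0.06. Without arrays 2 and 3, 1 gene, Tet2, was called there. Against healthy DN2 cells, 3 genes were higher and 8 lower in the DN2-labelled leukemias, in total 30.6% against 23.2% of all genes (9.49% higher and 13.7% lower). Against healthy GMPs, 1 gene was higher and 5 were lower in the GMP-labelled leukemias, in total 16.7% against 21.2% (8.09% higher and 13.1% lower). Between the healthy groups, 7 were higher and 2 lower in DN2 cells, in total 25% against 11.2% of all genes (5.78% higher and 5.4% lower). This last count was 1 to 3 when any 1 of the 4 healthy arrays was left out, and 23 in a fit of these groups alone; the count against healthy GMPs was 0 by limma without healthy GMP array 1 or 2 (6 and 8 at an unadjusted p under 0.05) and 10 without GMP-labelled array 4, and the count against healthy DN2 was 7 or 6 without healthy DN2 array 1 or 2. For counts from refits, here and above, the share of all genes called in the same fit is not given. A changed count is therefore not a result about these genes alone. The arrays of the groups compared did not overlap for 10 genes between DN2-labelled and GMP-labelled leukemias (28.1% of all genes tested), for 15 between DN2-labelled and LSK-labelled (42%) and for 7 between LSK-labelled and GMP-labelled (23.9%). Against healthy cells this held for 23 genes in DN2 (50%) and 18 in GMP origin (43.5%), and between the healthy groups for 31 (76.5%). Dnmt3b and Ezh2 were called lower than the healthy control in both origins, which is 2 of the 8 genes called lower in the DN2-labelled and 2 of the 5 called lower in the GMP-labelled leukemias. Of the 36 genes, 11 were called in no comparison: Asxl1, Chd4, Crebbp, Eed, Ehmt2, Hdac1, Hdac9, Kat6a, Nsd1, Setd2 and Tet3. A gene that was not called, here or below, may still differ.

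**Figure D1:**
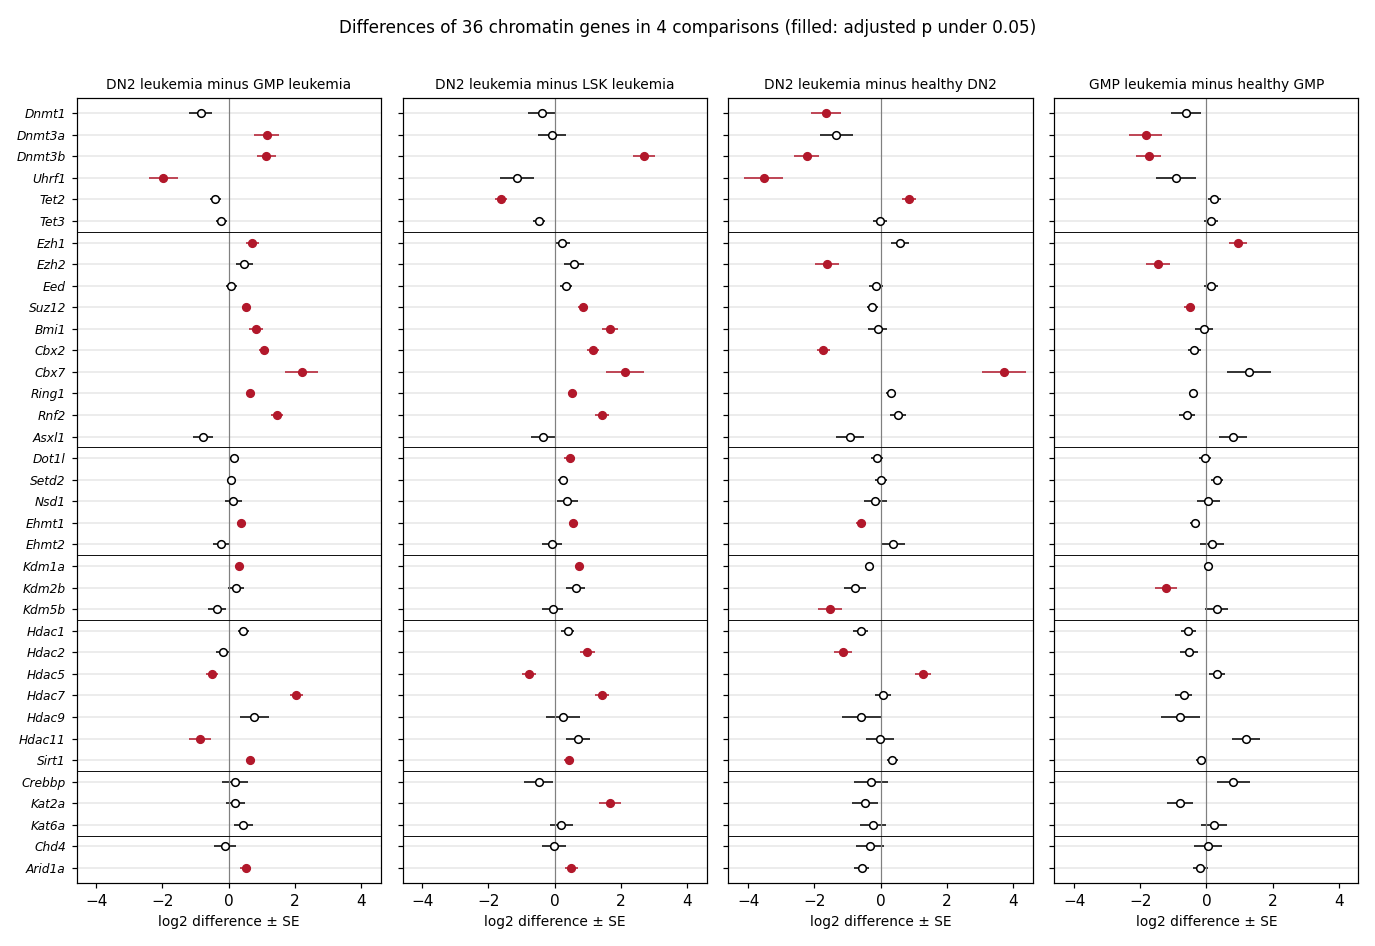
Log2 differences (horizontal axis) for the 36 tested genes, sorted by role, in 4 comparisons, with bars of 1 standard error; filled red points were called at an adjusted p under 0.05 in limma. For DN2-labelled minus GMP-labelled leukemias 14 points were called to the right of 0 and 3 to the left.

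Of the 6 DNA methylation genes tested, Uhrf1 and Dnmt3b carried the widest differences, so the 250 bases before their start sites are shown here. They come from RefSeq on build GRCm38.p6, 5′ to 3′ on the gene's strand: Uhrf1 at chr17:56303087-56303336 on the plus strand, and Dnmt3b at chr2:153649199-153649448 on the plus strand. Capitals mark matches to a core of the E2F motif, a site used by cell-cycle transcription factors.
Uhrf1: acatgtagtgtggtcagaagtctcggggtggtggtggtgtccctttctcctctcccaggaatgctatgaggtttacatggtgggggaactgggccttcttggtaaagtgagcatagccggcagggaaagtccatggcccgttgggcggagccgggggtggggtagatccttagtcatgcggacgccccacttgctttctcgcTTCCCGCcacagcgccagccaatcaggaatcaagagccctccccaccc
Dnmt3b: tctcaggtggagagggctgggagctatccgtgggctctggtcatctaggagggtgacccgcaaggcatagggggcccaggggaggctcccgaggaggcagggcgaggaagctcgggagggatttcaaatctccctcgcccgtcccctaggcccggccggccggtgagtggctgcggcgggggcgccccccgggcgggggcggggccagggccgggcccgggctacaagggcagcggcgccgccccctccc
The cores searched on both strands were TTCCCGC and TTCGCGC and TTGGCGC and TTGCCGC, and the Myc-type E-box searched was CACGTG. Uhrf1 held 1 E2F core, 48 bases before its start in the window shown, and Dnmt3b held neither motif. RefSeq entries were found for 33 of the 37 measured genes, with 48 windows: 16.7% of these windows held an E2F core and 10.4% an E-box, against 7.9% and 6.0% of all 32851 windows in the table. The windows of these genes were also richer in G and C, with a median of 67.8% against 52.4%, and matches were not tested as binding sites.

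Uhrf1 was lowest in the DN2-labelled leukemias, with 7.84, 6.90, 9.02, 7.81 and 6.02 in arrays 1 to 5. It read 9.20, 9.50, 9.16, 10.35 and 9.24 in the GMP-labelled leukemias and 9.33, 7.89 and 8.74 in the LSK-labelled ones. Healthy DN2 stood at 11.05 ± 0.08 (SD, n = 2), and both healthy GMP arrays 10.41. Every DN2-labelled array lay below every GMP-labelled and every healthy array. Uhrf1 fell by 3.54 ± 0.60 against healthy DN2 (limma, adjusted p = 5.47e-04), and it was lower than in the GMP-labelled leukemias by -1.97 ± 0.45 (adjusted p = 0.0027). Against healthy GMPs, the GMP-labelled leukemias differed by -0.92 ± 0.60, which was not called (adjusted p = 0.294). The difference of these leukemia-minus-healthy values between the origins was -2.61 and was not called either (adjusted p = 0.0563).

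Uhrf1 and Dnmt1 are known to be expressed mainly in dividing cells, and a list of 20 proliferation genes, 19 of them measured, was set beside them. The mean of that list was 6.82 to 9.59 in the DN2-labelled, 8.75 to 10.02 in the GMP-labelled and 8.72 to 9.29 in the LSK-labelled leukemias, and 10.35 to 10.50 in the healthy arrays. Of the 19 genes, 18 were lower and 0 higher in the DN2-labelled leukemias than in healthy DN2, where 13.7% of all genes were lower. Against the GMP-labelled leukemias 12 were lower and 1 was higher, where 18.8% of all genes were lower and 21% higher. No leukemia array reached the healthy range of the list's mean. As a covariate, that mean therefore cannot separate proliferation from group in comparisons with healthy cells, here or below. With the list's mean as a covariate, the Uhrf1 difference from healthy DN2 was -1.18 (adjusted p = 0.0614) and that from the GMP-labelled leukemias was -0.69 (adjusted p = 0.0362). Dnmt1, the maintenance methyltransferase, read 9.37, 8.94, 10.14, 9.43 and 7.82 in the DN2-labelled leukemias and 10.77 and 10.81 in healthy DN2, with no overlap. Its fall of -1.65 ± 0.46 against healthy DN2 (adjusted p = 0.0174) lost its call without healthy DN2 array 1 or 2 (-1.67 and -1.63) and was 0.015 with the covariate (adjusted p = 0.991). Dnmt1 was not called in any other comparison; the GMP-labelled leukemias, at 9.99 ± 0.22 (SD, n = 5), differed from healthy GMPs by -0.62 (adjusted p = 0.363).

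Dnmt3b, a de novo methyltransferase, was ordered by group with little spread within most groups. It read 8.09, 8.19, 8.16, 8.01 and 8.12 in the DN2-labelled leukemias and 7.12, 7.32, 6.40, 7.39 and 6.61 in the GMP-labelled ones. The LSK-labelled arrays read 6.56, 4.80 and 4.86, the healthy DN2 arrays 10.25 and 10.44, and the healthy GMP arrays 8.75 and 8.68. Each leukemia lay below its healthy counterpart without overlap, by -2.24 ± 0.38 for DN2 (adjusted p = 6.13e-04) and -1.74 ± 0.38 for GMP (adjusted p = 0.0053), the latter call being lost without healthy GMP array 1 or 2 (-1.71 and -1.78). Among leukemias, the DN2-labelled ones were higher than the GMP-labelled by 1.14 ± 0.29 (adjusted p = 0.0054) and than the LSK-labelled by 2.71 ± 0.33 (adjusted p = 1.71e-05). The last of these was 1.56 without arrays 2 and 3 of the LSK-labelled group and remained called (adjusted p = 0.0028). With the proliferation mean as a covariate Dnmt3b was still called in both comparisons with healthy cells, at -2.08 and -1.66.

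Dnmt3a, the other de novo enzyme, read 7.64, 7.56, 8.00, 7.98 and 6.25 in the DN2-labelled leukemias and 7.32, 6.45, 5.70, 6.78 and 5.43 in the GMP-labelled ones. The groups overlapped through array 5 of the former. Dnmt3a was higher in the DN2-labelled leukemias by 1.15 ± 0.37 (adjusted p = 0.0221), a call lost without DN2-labelled array 3 or 4 or GMP-labelled array 3 or 5 (0.93 to 1.03). It fell by 1.84 ± 0.49 in the GMP-labelled leukemias against healthy GMPs (adjusted p = 0.0161), where the arrays read 8.29 and 8.06. That call was lost without either healthy GMP array (-1.73 and -1.95), and the value was -1.39 with the proliferation covariate (adjusted p = 0.111).

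Tet2, the methylcytosine dioxygenase, set the LSK-labelled leukemias apart. It read 9.80, 9.64 and 9.46 there, 8.11, 7.72, 7.77, 8.11 and 8.32 in the DN2-labelled and 8.70, 8.11, 8.52, 8.07 and 8.63 in the GMP-labelled leukemias. All 3 LSK-labelled arrays were above every other array. The difference was 1.23 ± 0.18 from the GMP-labelled leukemias (adjusted p = 3.08e-04), and without arrays 2 and 3 it was 1.39 (adjusted p = 0.0063). Healthy DN2 had the lowest Tet2, at 7.26 and 7.05, with a difference of -1.01 from healthy GMPs (adjusted p = 0.0157), a call lost without any 1 of the 4 healthy arrays (-1.12 to -0.91). Tet2 was higher in the DN2-labelled leukemias than in healthy DN2 by 0.85 ± 0.21 (adjusted p = 0.0082), and this call was lost without healthy DN2 array 2 (0.75) and with the proliferation covariate (0.53, adjusted p = 0.382). Tet3 lay between 3.25 and 4.32 in all arrays, near background, and was not called.

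**Figure D2:**
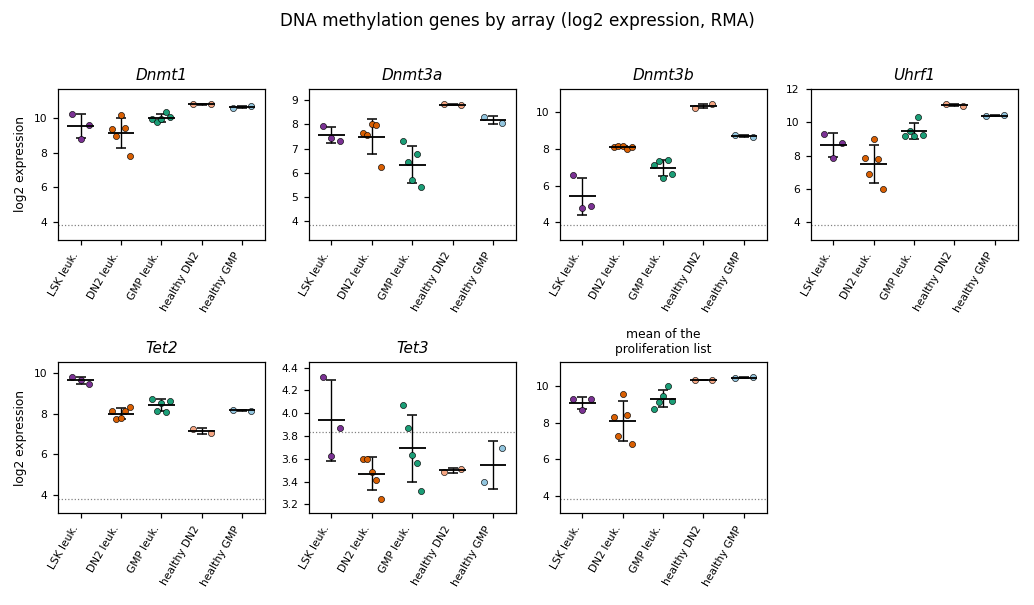
Log2 RMA level (vertical axis) of the 6 measured DNA methylation genes and the mean of the proliferation list in each array by group; dots are arrays, the line is the group mean, the bar its SD and the dotted line the median of all values, 3.83. Uhrf1 in the DN2-labelled leukemias ran from 6.02 to 9.02, below both healthy groups, and Tet2 was highest in the 3 LSK-labelled arrays.

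Many of the Polycomb genes were called higher in the DN2-labelled leukemias than in the others. Of the 10 tested, 7 were higher and 0 lower in the DN2-labelled leukemias when set against the GMP-labelled ones, or 70% called where 39.8% of all genes were, with a median difference of 0.68 against 0.03 over all genes; 8 had an unadjusted limma p under 0.05. Against the LSK-labelled leukemias 6 were higher and 0 lower, or 60% against 47.4% of all genes, with a median of 0.73 against 0.11. Of 18 further Polycomb genes tested, 8 were higher and 0 lower against the GMP-labelled leukemias (44.4% called, median 0.47). Against the LSK-labelled ones 10 of these were higher and 0 lower (55.6% called, median 0.57). The shares called thus lay nearer to those of all genes in the further list. No test compared the shares, and the lists were chosen with earlier results of these data known. Most of those called among the 10 encode subunits of Polycomb repressive complex 1, so 250 bases before the start of 2 of these genes are shown from RefSeq (GRCm38.p6, 5′ to 3′ on the gene's strand): Bmi1 at chr2:18676768-18677017 on the plus strand and Cbx7 at chr15:79932647-79932896 on the minus strand. Capitals mark a match to the Myc-type E-box CACGTG.
Bmi1: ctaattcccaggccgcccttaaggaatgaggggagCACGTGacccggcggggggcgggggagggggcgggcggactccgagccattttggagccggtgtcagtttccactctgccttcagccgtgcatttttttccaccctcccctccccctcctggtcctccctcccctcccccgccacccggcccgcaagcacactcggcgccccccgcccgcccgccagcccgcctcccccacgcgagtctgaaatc
Cbx7: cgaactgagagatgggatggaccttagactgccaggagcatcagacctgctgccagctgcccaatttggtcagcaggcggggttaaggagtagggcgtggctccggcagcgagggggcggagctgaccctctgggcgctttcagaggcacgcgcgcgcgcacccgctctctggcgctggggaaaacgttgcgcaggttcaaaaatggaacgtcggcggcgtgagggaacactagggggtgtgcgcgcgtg
The E-box in Bmi1 lay 215 bases before the start, and the Cbx7 window held neither this motif nor an E2F core.

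Cbx7, a chromodomain reader of methylated lysine 27, showed, of the 36 genes, the widest gap between a leukemia and its healthy counterpart. It read 8.10, 9.38, 7.45, 9.15 and 8.92 in the DN2-labelled leukemias and 4.48 and 5.24 in healthy DN2, a difference of 3.74 ± 0.66, or 13.4-fold (adjusted p = 7.97e-04). Another Cbx7 probe set differed by only 1.49 there, with a healthy DN2 mean of 3.15, near background. On the probe set used, the GMP-labelled leukemias read 7.95, 6.68, 5.77, 5.31 and 6.23, and healthy GMPs 5.02 and 5.18. That difference was 1.29 ± 0.66 and was not called (adjusted p = 0.183), and the difference between the 2 leukemia-minus-healthy values, 2.45, was not called either (adjusted p = 0.108). The DN2-labelled leukemias were above the GMP-labelled ones by 2.21 ± 0.50 (adjusted p = 0.0026), although array 1 of the latter lay above array 3 of the former. Against the LSK-labelled arrays, at 7.59, 5.81 and 6.01, the difference was 2.13 ± 0.58 (adjusted p = 0.0074). It was 1.01 without arrays 2 and 3 and no longer called (adjusted p = 0.408). With the proliferation covariate, the Cbx7 differences from healthy DN2 and from the GMP-labelled leukemias were 2.13 (adjusted p = 0.171) and 1.34 (adjusted p = 0.0835).

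Cbx2, a related reader, went the other way against healthy cells. It read 6.74 and 7.12 in healthy DN2 and 5.02, 5.26, 5.07, 5.64 and 5.02 in the DN2-labelled leukemias, lower by -1.73 ± 0.20 (adjusted p = 1.60e-05). Healthy GMPs read 4.57 and 4.43, and the GMP-labelled leukemias 4.14, 3.81, 4.12, 4.31 and 4.28, near background. The leukemia-minus-healthy difference was lower in DN2 than in GMP origin by -1.36 ± 0.28 (adjusted p = 0.0048), but with the GMP values so near 3.83 a fall of the same size could not have been measured there. Between leukemias, Cbx2 was higher with DN2 than with GMP origin by 1.07 ± 0.15 (adjusted p = 4.65e-05), with no overlap.

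Rnf2 and Ring1 are the E3 ligases that ubiquitinate H2A. Rnf2 read 10.16, 10.22, 9.78, 10.13 and 10.51 in the DN2-labelled leukemias, 8.40, 8.79, 8.48, 9.16 and 8.64 in the GMP-labelled and 8.32, 9.03 and 8.82 in the LSK-labelled ones. Every DN2-labelled array was above every array of the other 4 groups, in which healthy DN2 read 9.59 and 9.68 and healthy GMPs 9.39 and 9.19. Rnf2 was higher by 1.46 ± 0.18 than in the GMP-labelled leukemias (adjusted p = 1.08e-05) and by 1.44 ± 0.20 than in the LSK-labelled ones (adjusted p = 6.14e-05), or 1.84 without arrays 2 and 3 of the latter (adjusted p = 4.80e-04). Ring1 was also higher, with 6.43 to 6.67 in the DN2-labelled and 5.81 to 6.00 in the GMP-labelled leukemias, a difference of 0.65 ± 0.11 (adjusted p = 2.23e-04). Neither was called against healthy cells within an origin, but the leukemia-minus-healthy difference was higher in DN2 than in GMP origin for Rnf2, by 1.12 ± 0.33 (adjusted p = 0.0396), and for Ring1, by 0.71 ± 0.20 (adjusted p = 0.0325). Leaving out 1 of the 14 arrays of this test ended the Rnf2 call in 11 cases (1.01 to 1.22) and the Ring1 call in 7 (0.62 to 0.81); the 4 healthy arrays, DN2-labelled arrays 1 and 2 and GMP-labelled array 3 did so for both. Both calls were also lost with the proliferation covariate, at 0.96 for Rnf2 (adjusted p = 0.0906) and 0.62 for Ring1 (adjusted p = 0.0735). With Cbx2 and Kdm5b these were the 4 of 36 genes, 2 higher and 2 lower, called in that test of the difference, or 11.1% against 12.7% of all genes (6.39% higher and 6.28% lower), a share near the background.

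Bmi1, the subunit that activates these ligases, read 9.21, 9.73, 9.28, 9.08 and 10.09 in the DN2-labelled leukemias and 7.79, 8.09 and 7.53 in the LSK-labelled ones, without overlap. The difference of 1.68 ± 0.25 (adjusted p = 8.80e-05) was 1.69 without LSK-labelled arrays 2 and 3 (adjusted p = 0.0059). The GMP-labelled leukemias read 9.05, 8.26, 8.30, 8.67 and 8.92, all below the DN2-labelled ones, and the DN2-labelled ones were higher by 0.84 ± 0.22 (adjusted p = 0.0061). That value was 0.44 with the proliferation covariate (adjusted p = 0.171).

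In Polycomb repressive complex 2, the catalytic subunits differed. Ezh2 read 10.72 and 10.74 in healthy DN2 and 10.15 and 10.05 in healthy GMPs, and 9.21, 8.89, 9.70, 9.30 and 8.49 in the DN2-labelled and 7.97, 8.32, 8.65, 9.53 and 8.72 in the GMP-labelled leukemias. All leukemia arrays lay below all healthy arrays. Ezh2 fell by 1.61 ± 0.35 in DN2 (adjusted p = 0.0039) and by 1.47 ± 0.35 in GMP origin (adjusted p = 0.0094). With the proliferation covariate the value for DN2 was -0.37 and no longer called, and the value for GMP was -0.83 (adjusted p = 0.0379). The latter call was lost without healthy GMP array 1 or 2 (-1.42 and -1.51). Ezh1, which is known from non-dividing cells, was higher in the GMP-labelled leukemias than in healthy GMPs by 0.95 ± 0.27 (adjusted p = 0.0210), at 6.72 to 7.81 against 6.29 and 6.37, a call lost without either healthy GMP array (0.91 and 0.98) and with the proliferation covariate (0.69, adjusted p = 0.138). Suz12, a core subunit, was 10.03 ± 0.20 (SD, n = 5) in the DN2-labelled and 9.51 ± 0.20 (SD, n = 5) in the GMP-labelled leukemias, a difference of 0.52 ± 0.13 (adjusted p = 0.0041). Eed stayed between 9.38 and 10.44 in all arrays and was called in no comparison, as was Asxl1. The Asxl1 probe sets went opposite ways. The one used averaged 8.79 in the DN2-labelled leukemias and 9.72 in healthy DN2, and the other 8.99 and 8.20.

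**Figure D3:**
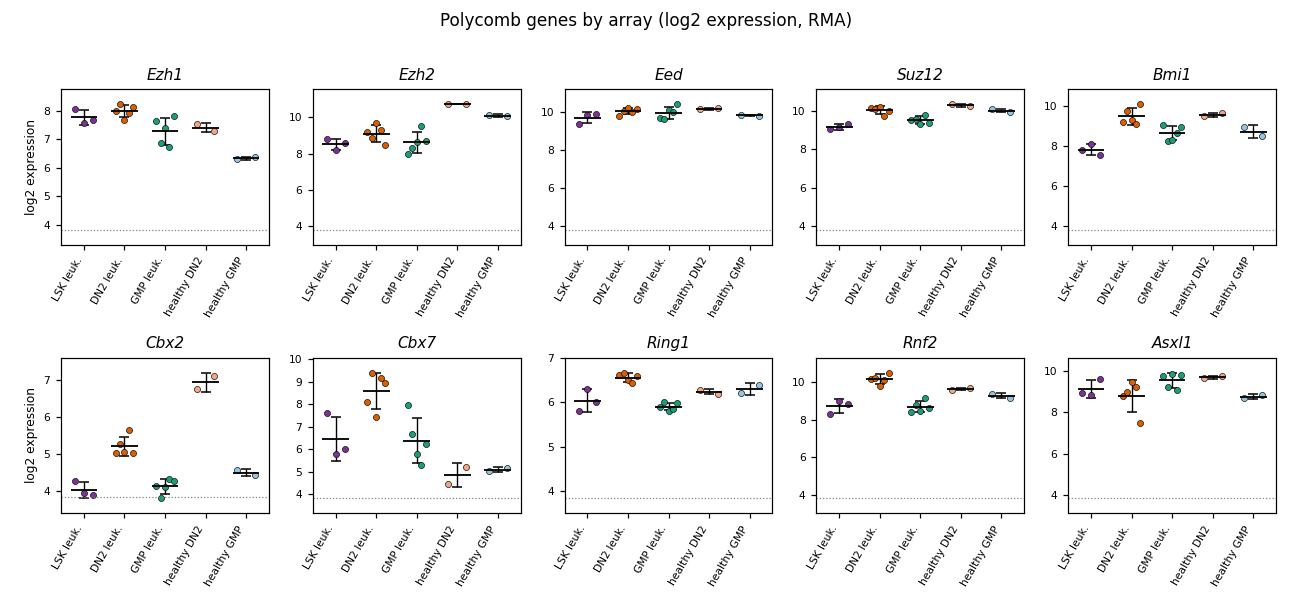
Log2 RMA level (vertical axis) of the 10 measured Polycomb genes in each array by group; dots are arrays, lines are means, bars are SDs and the dotted line is the median of all values. Rnf2 in the DN2-labelled leukemias, from 9.78 to 10.51, lay above every other array, and Ezh2 lay lower in all leukemia arrays than in all healthy arrays.

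Among the histone lysine methyltransferases, Ehmt1, which methylates H3 lysine 9, moved within a narrow range. It was 10.60 and 10.64 in healthy DN2, 9.96 to 10.10 in the DN2-labelled, 9.41 to 9.89 in the GMP-labelled and 9.30 to 9.58 in the LSK-labelled leukemias. It was lower in the DN2-labelled leukemias than in healthy DN2 by -0.59 (adjusted p = 0.0110) and higher than in the GMP-labelled ones by 0.36 ± 0.11 (adjusted p = 0.0213). The first call was lost without healthy DN2 array 1 or 2 (-0.62 and -0.57) and the second without GMP-labelled array 4 or 5 (0.30 and 0.31). Neither was called with the proliferation covariate. The first difference was then wider, at -0.68 (adjusted p = 0.0954), and the second was 0.31 (adjusted p = 0.136). Dot1l, the H3 lysine 79 methyltransferase, was higher in the DN2-labelled than in the LSK-labelled leukemias by 0.46. The value was 0.38 to 0.43, and not called, without LSK-labelled array 2 or 3 or DN2-labelled array 3 or 5, and 0.23 without both LSK-labelled arrays 2 and 3 (adjusted p = 0.514). Setd2, Nsd1 and Ehmt2 were called in no comparison. Between the LSK-labelled and GMP-labelled leukemias 0 of the 5 were called, where 26.7% of all genes were, and 0 had an unadjusted limma p under 0.05.

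Of the demethylases, Kdm5b, which removes methyl groups from H3 lysine 4, was highest in healthy DN2. It read 8.64 and 8.73 there and 7.12, 7.88, 6.22, 7.18 and 7.36 in the DN2-labelled leukemias, a difference of -1.53 ± 0.36 (adjusted p = 0.0059) without overlap; the call was lost without healthy DN2 array 1 or 2 (-1.58 and -1.48). In GMP origin it read 7.77, 8.06, 7.12, 7.29 and 7.31 in leukemias and 7.32 and 7.08 in healthy cells, and the values overlapped. The leukemia-minus-healthy difference was lower in DN2 origin by -1.84 ± 0.50 (adjusted p = 0.0260), a call lost without any 1 of the 4 healthy arrays (-1.96 to -1.73). The Kdm5b value for DN2 was -2.59 with the proliferation covariate (adjusted p = 7.76e-04). Kdm1a (LSD1), a demethylase of H3 lysine 4, was 10.66 to 10.95 in the DN2-labelled, 10.32 to 10.59 in the GMP-labelled and 9.93 to 10.15 in the LSK-labelled leukemias, and these ranges did not overlap. Its differences were 0.31 ± 0.10 between the first and the second of these groups (adjusted p = 0.0240; 0.26 and 0.27, not called, without DN2-labelled array 2 or GMP-labelled array 5) and 0.74 between the first and the third. The first of these was 0.20 with the proliferation covariate (adjusted p = 0.256), and the second was 0.63 without LSK-labelled arrays 2 and 3 (adjusted p = 0.0164). Kdm2b, which recruits a Polycomb complex to CpG islands, was lower in the GMP-labelled leukemias, at 7.95 to 9.18, than in healthy GMPs, at 9.64 and 9.83, by -1.23 ± 0.32 (adjusted p = 0.0148), a call lost without healthy GMP array 1 or 2 (-1.32 and -1.13) and with the proliferation covariate (-1.02, adjusted p = 0.0912).

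**Figure D4:**
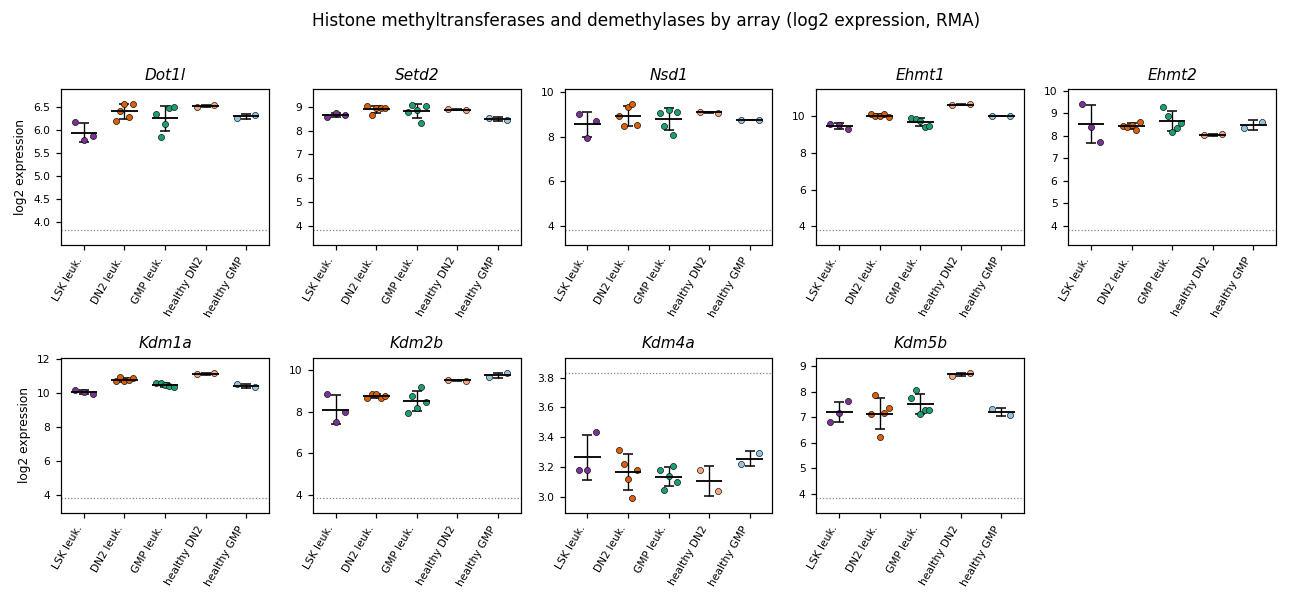
Log2 RMA level (vertical axis) of the 9 measured histone methyltransferase and demethylase genes in each array by group; dots are arrays, lines are means, bars are SDs and the dotted line is the median of all values. Kdm5b was highest in healthy DN2, at 8.64 and 8.73, and Kdm4a stayed below the dotted line in every array.

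Hdac7, a class IIa deacetylase with known roles in thymocytes, had the lowest adjusted p of these genes between leukemias. Values are from the probe set used, and the other one differed by only 0.63 between DN2-labelled and GMP-labelled leukemias. Hdac7 read 7.48, 8.19, 7.49, 8.23 and 7.82 in the DN2-labelled and 6.08, 6.07, 5.56, 5.83 and 5.42 in the GMP-labelled leukemias. Healthy DN2 read 7.80 and 7.75 and healthy GMPs 6.51 and 6.45, so healthy DN2 was likewise above healthy GMPs. The difference was 2.05 ± 0.19 between the leukemias (adjusted p = 6.86e-07) and 1.29 between the healthy groups, where the call was lost without any 1 healthy array (1.26 to 1.32). Hdac7 was also above the LSK-labelled arrays, at 6.78, 6.14 and 6.32, by 1.43, and by 1.06 without arrays 2 and 3 (adjusted p = 0.0264). In the comparison of LSK-labelled with GMP-labelled leukemias the gene's other probe set differed by -0.06 where the one used differed by 0.62, or by 0.99 without arrays 2 and 3, which was not called (adjusted p = 0.0642).

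Hdac5, another class IIa enzyme, had the opposite order. It read 6.87, 6.52, 6.42, 6.33 and 6.61 in the DN2-labelled and 7.53, 6.74, 7.05, 6.75 and 7.16 in the GMP-labelled leukemias, which overlapped, with a difference of -0.50 ± 0.19 (adjusted p = 0.0475) that lost its call without any 1 of 7 of these 10 arrays (-0.51 to -0.37). Healthy DN2 read lowest, at 5.46 and 5.07, and the DN2-labelled leukemias were higher by 1.29 ± 0.25 (adjusted p = 0.0015), a call lost with the proliferation covariate (0.96, adjusted p = 0.147). Hdac2, a class I deacetylase, was 7.64 to 8.26 in the LSK-labelled leukemias, below all other arrays, which began at 8.51. It was lower in the DN2-labelled leukemias than in healthy DN2 by -1.14 ± 0.27 (adjusted p = 0.0064), a call lost without healthy DN2 array 1 or 2 (-1.21 and -1.07) and with the proliferation covariate (-0.62, adjusted p = 0.425). Hdac11 was near background except in arrays 1, 3 and 5 of the GMP-labelled leukemias, which read 5.24, 3.98, 4.43, 2.98 and 5.05 against 3.34 to 3.72 in the DN2-labelled ones; the difference of -0.87 ± 0.32 (adjusted p = 0.0455) lost its call without any 1 of 8 of these 10 arrays (-0.93 to -0.64). Sirt1, an NAD-dependent deacetylase, was 9.13 to 9.50 in the DN2-labelled and 8.74 ± 0.16 (SD, n = 5) in the GMP-labelled leukemias, a difference of 0.65 ± 0.13 (adjusted p = 0.0010).

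Of the acetyltransferases, Kat2a (GCN5), known as a partner of Myc, depended on the LSK-labelled arrays. It read 5.55, 4.27 and 3.74 there, 5.77 to 6.74 in the DN2-labelled and 5.58 to 6.44 in the GMP-labelled leukemias. The difference between the DN2-labelled and LSK-labelled groups was 1.68 ± 0.34 (adjusted p = 0.0010), and 0.65 without arrays 2 and 3 (adjusted p = 0.212). Between the DN2-labelled and GMP-labelled leukemias 0 of 3 acetyltransferases were called by limma, where 39.8% of all genes were, and 0 had an unadjusted p under 0.05. Of the remodelling genes, Arid1a, a subunit of the SWI/SNF (BAF) complex, was higher in DN2-labelled than in GMP-labelled leukemias by 0.52 ± 0.17 (adjusted p = 0.0286), a call lost without DN2-labelled array 1, 3 or 4 or GMP-labelled array 2 or 4 (0.40 to 0.50), and Chd4 was called in no comparison.

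**Figure D5:**
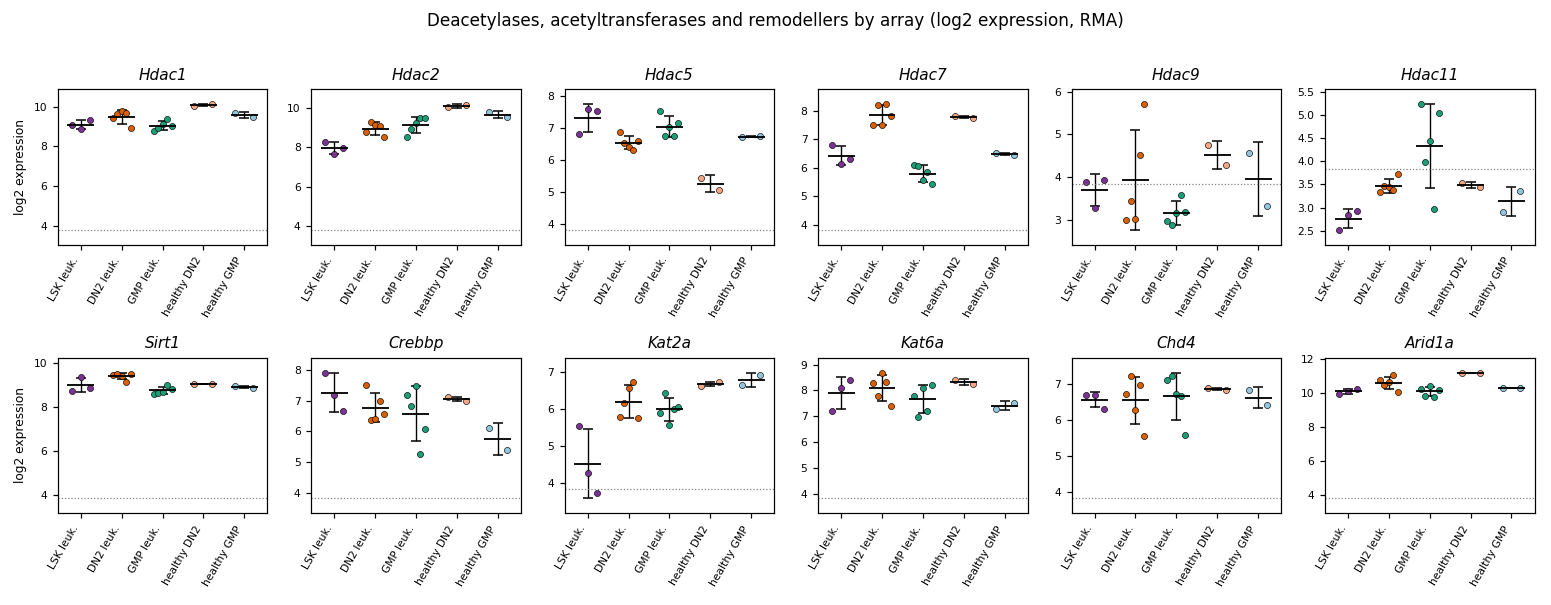
Log2 RMA level (vertical axis) of the 12 measured deacetylase, acetyltransferase and remodelling genes in each array by group; dots are arrays, lines are means, bars are SDs and the dotted line is the median of all values. Hdac7 separated the DN2-labelled leukemias (7.48 to 8.23) from the GMP-labelled ones (5.42 to 6.08), and Kat2a was lowest in LSK-labelled arrays 2 and 3.

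A further list of 128 chromatin genes, of which 104 were tested, was counted beside these. Between the DN2-labelled and GMP-labelled leukemias 30 were higher and 9 lower, with a median of 0.24; the 37.5% called lay near the 39.8% of all genes. Against healthy DN2 13 were higher and 23 lower, in total 34.6% against 23.2% of all genes. Differences given next against a group near 3.83 are limited by background and are not exact sizes. Cbx6, another Polycomb reader, was 8.11 ± 0.38 (SD, n = 5) in the DN2-labelled and, near background, 3.94 ± 0.24 (SD, n = 5) in the GMP-labelled leukemias (measured difference 4.17, adjusted p = 4.10e-10), and 7.88 in healthy GMPs. Chd3, a remodelling ATPase, was 7.96 ± 0.29 (SD, n = 5) and, near background, 3.73 ± 0.18 (SD, n = 5) in the same groups (measured difference 4.23, adjusted p = 2.35e-09). Idh1, an isocitrate dehydrogenase whose product is a co-substrate of Tet enzymes, was 6.50 ± 1.29 (SD, n = 5) and 10.74 ± 0.25 (SD, n = 5), lower by -4.24 (adjusted p = 2.71e-06). Chd7, a remodelling ATPase, was 3.62 in healthy DN2, near background, and 8.70 ± 0.63 (SD, n = 5) in the DN2-labelled leukemias, a measured difference of 5.08 ± 0.41 (adjusted p = 3.18e-07). Idh2 and Mbd4, which repairs deaminated methylcytosine, were lower there than in healthy DN2, by -3.53 and -1.65. Pcgf6, a Polycomb subunit, and Smyd2, a lysine methyltransferase, were higher in the DN2-labelled than in the LSK-labelled leukemias by 4.50 and 3.87. Pcgf6 read 6.21 in LSK-labelled array 1, 4.35 in array 3 and less in array 2, and Smyd2 read 9.43 in array 1 and 4.77 and 5.25 in arrays 2 and 3, against 10.35 ± 0.17 (SD, n = 5) in the DN2-labelled leukemias. In the GMP-labelled leukemias Cbx6 and Phc1, another Polycomb subunit, were lower than in healthy GMPs by -3.94 and -2.94, and Kdm7a, a demethylase, was higher by 2.61. Mta3, a subunit of the NuRD complex, was higher in healthy DN2 than in healthy GMPs by 3.74.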

How the data were processed

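Transcript levels came from Affymetrix mouse arrays hybridised with RNA made from 300 ng of total RNA per sample, per the labels' protocols. The deposited values are log2 RMA summaries per probe set, made by the authors with RMA and affy, per the submitters' processing notes; versions, and whether all arrays were normalized together, were not stated in those notes. RMA compresses differences near background, and the number of arrays limits the precision.

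Of 45141 probe sets, 104 controls were left out; 28898 had 1 gene symbol, 551 several and 15588 were not listed in the platform annotation, and 28689 were matched to RefSeq (GRCm38.p6) by Entrez identifier. The probe set of highest mean stood for a gene, and 11625 genes whose highest group mean was over 3.83, the median of all values, were tested. limma 3.58.1 in R 4.3.3 (lmFit, eBayes) fitted a mean per group over all 17 arrays, two-sided, with Benjamini-Hochberg adjustment, and was tested on simulated data. There, 100 of 11625 genes were changed by 1 unit. Of these, 21% were called between the healthy groups, 42% and 43% against healthy cells and 46% to 56% between leukemias. Groups came from the labels. The text names all 44 listed genes and the 3 further chromatin genes with the widest called differences, without overlap, per comparison. Gene members and lists were chosen with earlier results of these data known. Alternatives were other probe set rules, filters, normalizations, weights, blocks, covariates and arrays left out. The 250 bases before each RefSeq start were searched for 5 motifs on both strands.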

Additional observations from a re-analysis of the deposited data

Results flagged for a closer look

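In groups of 5 arrays, 74 sets of values were searched for an array far from the others, by the gap to its neighbour over the whole range of the group, and 4 stood out; chance gives about 1 in 20. Dnmt3a in array 5 of the DN2-labelled leukemias was 6.25 where the other arrays ran from 7.56 to 8.00 (gap 0.75 of the range). Setd2 in array 2 of the same group was 8.64 against 8.94 to 9.02 (gap 0.773), and Sirt1 in array 4 was 9.13 against 9.40 to 9.50 (gap 0.71). Uhrf1 in array 4 of the GMP-labelled leukemias was 10.35 against 9.16 to 9.50 (gap 0.713), in an array whose proliferation mean, 10.02, was also the highest of its group; the part of proliferation in this value was not tested.

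The difference between leukemia and healthy cells was not the same in DN2 and GMP origin for 4 of 36 genes by limma's test of that difference, which is 11.1% against 12.7% of all genes and so near the background. It was lower in DN2 origin for Cbx2 (-1.36) and Kdm5b (-1.84), and higher for Ring1 (0.71) and Rnf2 (1.12). Of the 14 fits that leave out 1 array, 11 ended the call for Rnf2, 7 for Ring1 and 4 for Kdm5b. For Cbx2, the GMP values lay near background, which limits how low they could be measured.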

How the results depend on the processing

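The share of all genes called in each alternative fit is not set beside the counts in this section. A changed count is therefore not a result about these genes alone. The counts of genes called kept within 1.5 times of the reported ones under most alternatives, with these exceptions, and the causes were not tested. Array weights gave 15 calls between LSK-labelled and GMP-labelled leukemias, 22 against healthy DN2, 19 against healthy GMPs, 22 between the healthy groups and 20 in the test of the difference. A fit of only the 2 groups compared gave 3 between LSK-labelled and GMP-labelled leukemias and 23 between the healthy groups. Leaving out LSK-labelled arrays 2 and 3 gave 1 for LSK-labelled against GMP-labelled, and leaving out GMP-labelled arrays 2 and 4, where Mpo was highest, gave 10 against healthy GMPs. With the proliferation mean as a covariate, 3 were called against healthy DN2 and 2 against healthy GMPs, and the Dnmt1 difference from healthy DN2 reversed to 0.015. No leukemia array reached the healthy range of that mean, so these values cannot separate proliferation from group.

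Leaving out 1 array at a time gave 12 to 19 calls for DN2-labelled against GMP-labelled leukemias, 14 to 16 for DN2-labelled against LSK-labelled, 5 to 9 for LSK-labelled against GMP-labelled (5 without LSK-labelled array 3), 6 to 12 against healthy DN2 (7 and 6 without healthy DN2 array 1 or 2), 0 to 10 against healthy GMPs, 1 to 3 between the healthy groups and 1 to 6 in the test of the difference. The limma count of 0 arose without either healthy GMP array, with 6 and 8 unadjusted p under 0.05, and the count of 10 without GMP-labelled array 4. In the test of the difference, 1 was called without any one healthy array and 2 without DN2-labelled array 1 or 2 or GMP-labelled array 3. Of 73 called differences of single genes, 22 were called under every alternative tried; of 1501 alternative values 253 lost the call and 1 reversed. With a replicate block the counts were 18, 14, 8, 11, 6, 8 and 5 in the order of the comparisons above; same-numbered arrays correlated by -0.302 to 0.254 over 25 pairs, so the numbers were not taken as pairs. Setting array medians to 0 moved the median of all genes from 0.11 to -0.01 for DN2-labelled against LSK-labelled, from -0.06 to 0.07 for LSK-labelled against GMP-labelled and from -0.12 to -0.01 for GMP-labelled against healthy GMPs, where 16, 7 and 5 genes were called.

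Each healthy group had 2 arrays, values near 3.83 are close to background, and depth does not apply to arrays.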
